A study of Homo sapiens with 12 samples.

Results

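The genes of Wnt signalling were examined by role in embryoid bodies, which are floating clusters of stem cells that differentiate together. The set was a list of 41 gene symbols with 18 Wnt ligands, 12 receptors, 4 TCF factors and 7 feedback targets, and each symbol matched 1 of the 65969 identifiers measured. All 41 are annotated as protein coding. Testing covered the 24898 genes that passed a filter on low counts, 40 of them members, with the ligand WNT2 left out. A mean of at least 1 CPM (read counts scaled to a common library size) was reached by 35 members, among them 12 of the 18 ligands and every receptor, TCF factor and feedback target.

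Wnt proteins are secreted, lipid-modified signals that bind a Frizzled receptor together with the co-receptor LRP5 or LRP6. In the canonical branch, binding stops the breakdown of beta-catenin, which then enters the nucleus and works with the DNA-binding TCF and LEF proteins. Some of the genes switched on there limit the signal in turn, and these feedback targets are used as a readout of the pathway. In the early nervous system Wnt signals are known to be strong at the dorsal midline and in the posterior neural plate, and low signalling is known to favour the anterior forebrain and the eye field.

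Both lines, H1 and MEL1, are established lines of human embryonic stem cells. Cells of both lines had received a lentiviral vector with a doxycycline-inducible short hairpin RNA and were selected with puromycin, the controls included; no single clone is named. The hairpins KD1, KD2 and KD3 target METTL14, a subunit of the enzyme complex that writes N6-methyladenosine on RNA, and SCR is the control hairpin. All aggregates were seeded with 500 cells per microwell and harvested after 10 days in medium with doxycycline at 2 µg/ml. H1 gave 8 libraries, 2 each with SCR, KD1, KD2 and KD3. MEL1 gave 4 libraries, 1 with SCR, 2 with KD1 and 1 with KD2. The labels do not say that libraries of a group came from separate cultures, so p-values measure the spread between these libraries, which may be technical.

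The MEL1 SCR library held 15963241 estimated counts; every other library held between 36609628 and 43508287. METTL14 stood at 29.8 and 43.8 CPM in H1 SCR against 8.89 to 17.7 CPM in the 6 H1 knockdown libraries, and at 49.9 CPM in MEL1 SCR against 5.94 to 8.95 CPM in the 3 MEL1 knockdown libraries. Knockdown and SCR libraries did not overlap in either line. The labels call the cells embryonic stem cells, and in H1 the stem cell gene POU5F1 was at 21.3 to 62.2 CPM, against 240 to 879 CPM in MEL1. Summed over 9 forebrain and eye field markers, H1 held 478 to 932 CPM and MEL1 85.7 to 136 CPM. Of 8 neuronal markers, 5 averaged at least 1 CPM in MEL1 with SCR and 5 with knockdown, while ELAVL4 was at 0 in all 4 MEL1 libraries. The MEL1 KD2 library stood apart from the other MEL1 libraries for many members, and the comparison of the lines and the test between their knockdown effects are also given without it. In bulk RNA, fewer cells of a type and less RNA per cell cannot be told apart.

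**Figure D1:**
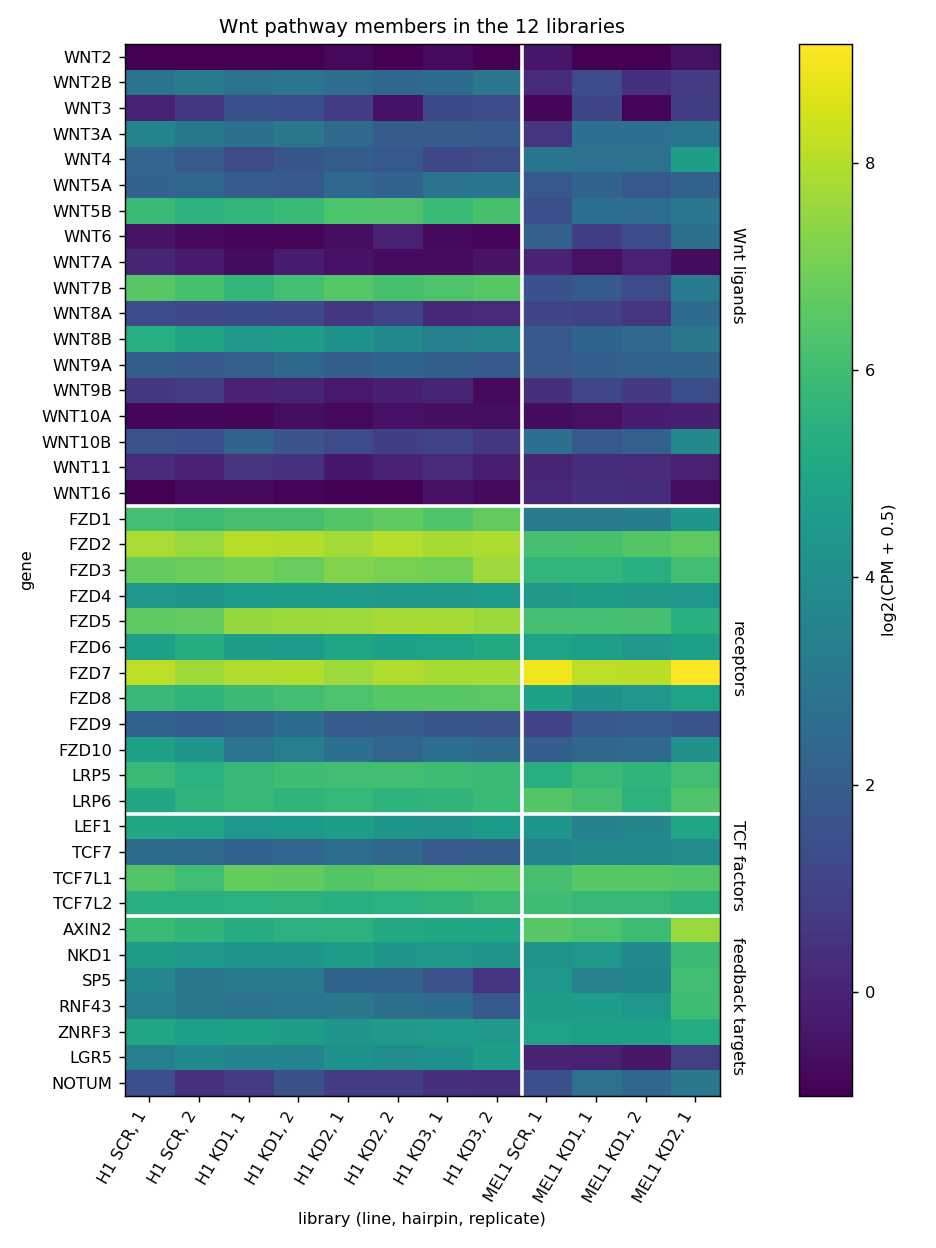
Level of each of the 41 members (rows, by role) in each of the 12 libraries (columns, H1 left and MEL1 right of the white line), coloured by log2(CPM + 0.5). WNT5B, WNT7B, FZD1 and LGR5 are brighter in H1 than in MEL1, while RNF43 and TCF7 are brighter in MEL1.

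Ligand transcripts in H1 came mostly from 3 genes. Levels of different genes were compared per kilobase of the longest annotated transcript. On that scale WNT5B, a ligand known mainly from beta-catenin-independent signalling, averaged 27.1 CPM per kb over the 8 H1 libraries (19.9 to 34.2). WNT7B followed with 19.6 (13.2 to 23.3) and WNT8B, a ligand of the embryonic forebrain, with 10.1 (4.64 to 19.2). The ranges of WNT5B and WNT7B overlapped, as did those of WNT7B and WNT8B. Each of the other 15 ligands averaged 2.08 CPM per kb or less in H1. MEL1 had no leading ligand of that size. Its highest averages were 2.90 CPM per kb for WNT4, 2.84 for WNT10B and 2.39 for WNT8B, and these ranges overlapped. That order leans on the KD2 library, where WNT4 was at 24.4 CPM against 6.40 to 7.29 CPM in the other MEL1 libraries. The leading ligand per kilobase was WNT10B in MEL1 SCR, WNT5B in both KD1 libraries and WNT4 in KD2. The summed ligand level was 54.9 to 78.3 CPM per kb in the H1 libraries and 13.6 to 34.2 in the MEL1 libraries, without overlap. The value of 34.2 was the KD2 library, and the other MEL1 libraries held 13.6 to 15.9.

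Receptor transcripts were more abundant than ligand transcripts per kilobase in every library. FZD2 led in H1 with 111 CPM per kb (91.1 to 125), ahead of FZD7 with 60.9 (52.7 to 72.4). In MEL1 the order was turned, with FZD7 at 104 CPM per kb (71.6 to 146) and FZD2 at 39.0 (33.6 to 46.8). FZD7 is known as the main Frizzled of human pluripotent stem cells. Among the TCF factors TCF7L1, known mostly as a repressor that keeps Wnt targets low without a signal, was highest in both lines, at 30.8 CPM per kb in H1 and 28.1 in MEL1. AXIN2, a scaffold of the complex that degrades beta-catenin and a general Wnt target, led the feedback targets in both lines, with 9.79 and 24.6 CPM per kb.

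The first comparison asked what METTL14 knockdown changed in H1. The average of the 3 hairpins against SCR called 9 of the 40 tested members (22.5%) at an adjusted p under 0.05, 3 higher and 6 lower, in edgeR's quasi-likelihood test. Among all tested genes 7.16% were called, 2.23% higher and 4.93% lower. FZD5, FZD8 and TCF7L1 were higher, and WNT3A, WNT8B, FZD10, LEF1, AXIN2 and SP5 were lower. The median log2 fold change was -0.35 over the 17 tested ligands, 0.23 over the receptors and -0.37 over the feedback targets, beside 0.01 over all genes tested. Without either 1 of the H1 SCR libraries, or without the first H1 KD1 library, 5 members were called. When a trend on transcript GC content and length was removed from each library 15 were called, the same 9 among them. With that trend removed, calls over all genes also went from 555 higher and 1228 lower to 1061 and 1832. That trend varied within groups, with a Spearman correlation, across 10127 genes, between a gene's deviation from its mean level and its GC content of 0.253 in the first and -0.494 in the second H1 SCR library.

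Among the ligands, WNT8B and WNT3A fell. WNT8B (chromosome 10, 100463041 to 100483744, plus strand, GENCODE 29 on GRCh38) stood at 40.5 and 30.1 CPM with SCR, 22.0 and 25.1 with KD1, 17.9 and 13.8 with KD2, and 9.80 and 11.5 with KD3. All 6 knockdown libraries lay below both SCR libraries. The log2 fold change of the hairpin average was -1.15 (SE 0.15, adjusted p = 0.0028 in edgeR's test), and WNT8B kept its call in all 20 alternatives tried. WNT3A (chromosome 1, 228007051 to 228061260, plus strand), a classic canonical ligand of the dorsal midline and the tail bud, was at 11.3 and 8.07 CPM with SCR, 6.14 and 7.87 with KD1, 5.26 and 3.44 with KD2, and 3.44 and 3.15 with KD3. Its knockdown libraries also lay below both SCR libraries, although the higher KD1 library came close to the lower SCR library. The change was -1.06 (SE 0.20, adjusted p = 0.0139), and without the first SCR library it missed the threshold (adjusted p = 0.103).

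No other ligand was called in the H1 average. The values of WNT4 (log2 -0.66, adjusted p = 0.0599) and WNT9B (log2 -1.57, adjusted p = 0.0615, mean level 0.883 CPM) came nearest. WNT4, which acts in kidney and gonad development, had 4.43 and 3.29 CPM with SCR and 1.72 to 3.47 CPM with the hairpins, an overlap. The abundant ligands WNT5B and WNT7B were not called: WNT5B had 57.6 and 45.9 CPM with SCR and 50.7 to 78.8 CPM with the hairpins, WNT7B 91.1 and 72.8 against 51.8 to 89.5 CPM. The other ligands with a mean of at least 1 CPM (WNT2B, WNT3, WNT5A, WNT6, WNT8A, WNT9A and WNT10B) had log2 fold changes that missed the threshold in this average. WNT2, WNT7A, WNT10A, WNT11 and WNT16 stayed at or below 0.936 CPM in every library.

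Receptors moved in both directions. FZD5 (chromosome 2, 207762586 to 207769563, minus strand), a Frizzled known from the eye field, stood at 99.7 and 104 CPM with SCR, 185 and 197 with KD1, 199 and 225 with KD2, and 223 and 196 with KD3. Every knockdown library held well over the SCR level, and the KD3 libraries overlapped those of both other hairpins. The log2 fold change was 1.0 (SE 0.10, adjusted p = 0.000615). FZD10 (chromosome 12, 130162459 to 130165740, plus strand), a Frizzled known from the dorsal neural tube, went the other way. It was at 26.4 and 18.8 CPM with SCR, 7.33 and 9.70 with KD1, 6.06 and 4.41 with KD2, and 6.07 and 5.25 with KD3. The groups were far from overlapping, and the change on the log2 scale was -1.84 (SE 0.17, adjusted p = 0.000579). FZD5 and FZD10 were called in all 20 alternatives and in each hairpin by itself.

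FZD8, a Frizzled of the anterior neural plate, rose less. It was at 55.8 and 48.4 CPM with SCR, 59.1 and 66.1 with KD1, 76.1 and 90.6 with KD2, and 90.5 and 92.8 with KD3. All knockdown libraries were above SCR, the KD1 libraries by little. The log2 fold change was 0.59 (SE 0.11, adjusted p = 0.0161), and without the second SCR library the adjusted p was 0.158. The values of the other receptors missed the threshold. Among them FZD1 (log2 0.38, adjusted p = 0.073) and LRP5 (log2 0.27, adjusted p = 0.189) came nearest, and FZD2, FZD3, FZD4, FZD6, FZD7, FZD9 and LRP6 had adjusted p-values above those of FZD1.

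Of the TCF factors, LEF1 fell and TCF7L1 rose. LEF1, an activating partner of beta-catenin and itself a Wnt target in many tissues, was at 33.6 and 30.5 CPM with SCR, 20.6 and 22.4 with KD1, 25.1 and 20.4 with KD2, and 18.3 and 22.5 with KD3. The 6 knockdown libraries lay below both SCR libraries, and the change on the log2 scale was -0.57 (SE 0.12, adjusted p = 0.0224). The call was lost without either SCR library or the first KD1 library, with adjusted p-values up to 0.117. Reads of LEF1 and its antisense gene LEF1-AS1 cannot be told apart if the counting did not use strand. TCF7L1 was at 82.3 and 65.8 CPM with SCR and 84.6 to 108 CPM with the hairpins (log2 0.39, SE 0.10, adjusted p = 0.0464). That call was close to the threshold and held in 9 of 20 alternatives, with adjusted p-values up to 0.359. TCF7 and TCF7L2 were not called.

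Among the 7 feedback targets, AXIN2 and SP5 fell and none rose. AXIN2 was at 57.5 and 49.4 CPM with SCR, 38.1 and 43.5 with KD1, 44.9 and 35.2 with KD2, and 32.6 and 32.3 with KD3. All knockdown libraries were below SCR; the log2 fold change was -0.51 (SE 0.12, adjusted p = 0.0328), and the call held in 13 of 20 alternatives. It was lost without any 1 of the H1 libraries except the first KD2 library, with adjusted p-values from 0.0542 to 0.193. SP5 (chromosome 2, 170715351 to 170718078, plus strand), a zinc finger factor that represses TCF-driven genes, was at 12.5 and 7.57 CPM with SCR, 8.52 and 8.34 with KD1, 4.28 and 4.17 with KD2, and 2.52 and 0.991 with KD3. The KD1 libraries overlapped SCR and the KD3 libraries were lowest. The log2 fold change of the average was -1.34 (SE 0.26, adjusted p = 0.0193), and -0.92 without the first SCR library (adjusted p = 0.124).

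The other targets were not called in this average. RNF43 and ZNRF3, membrane ubiquitin ligases that remove Frizzled receptors, had log2 fold changes of -0.60 (adjusted p = 0.093) and -0.33 (adjusted p = 0.107). NKD1, an inhibitor that binds Dishevelled, had -0.14 (adjusted p = 0.652), and NOTUM, an enzyme that strips the lipid from Wnt proteins, had -0.37 (adjusted p = 0.584). LGR5, a receptor for R-spondins and a marker of Wnt-responsive stem cells, pointed up with 0.45 (adjusted p = 0.163). It was at 10 and 13.3 CPM with SCR, 11.5 and 11.2 with KD1, 18.1 and 15.2 with KD2, and 18.2 and 24.4 with KD3.

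**Figure D2:**
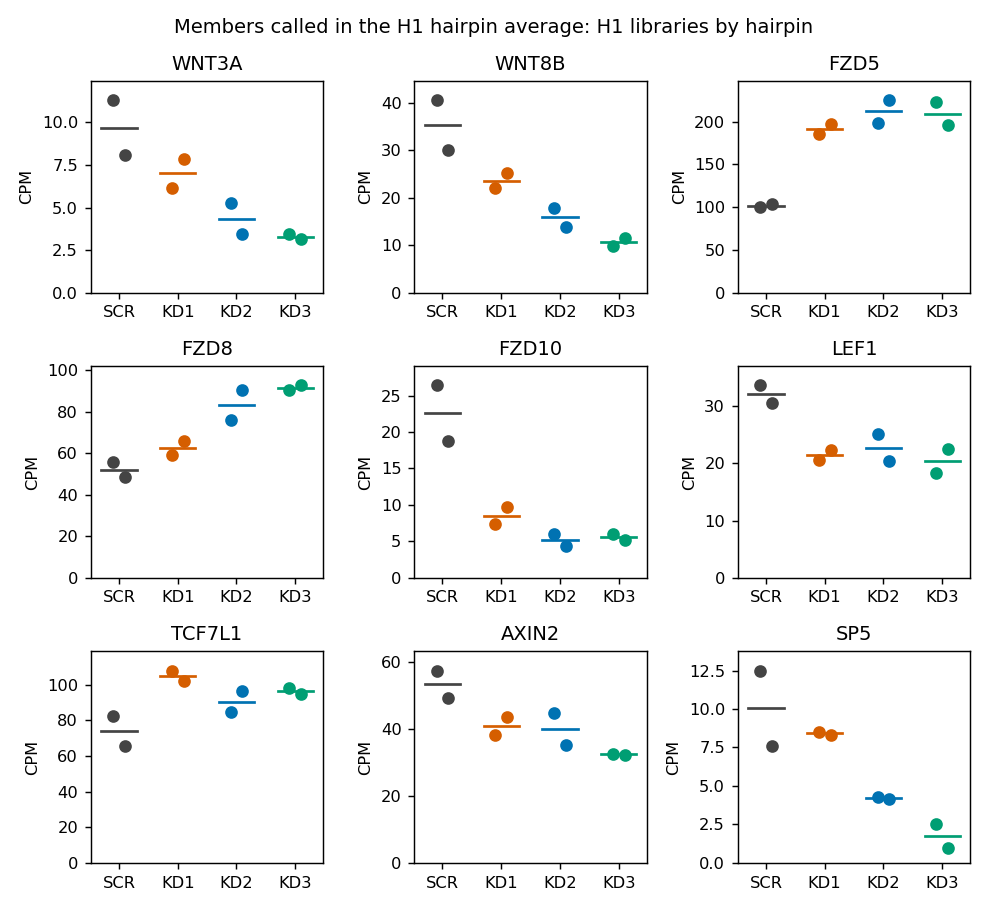
CPM of the 9 members called in the H1 hairpin average (1 panel each), by hairpin; points are the 2 libraries of a group and bars their mean. FZD5 is near 100 CPM with SCR and 185 to 225 CPM with every hairpin, while WNT8B and SP5 are lowest with KD3.

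Counted by ranges alone, 6 of the 41 members had all 6 H1 knockdown libraries above both SCR libraries, where 8.61% of all tested genes did, and 7 had them all below, where 11.7% did. The members above were 4 receptors and 2 TCF factors. Those below were 3 ligands, 1 receptor, 1 TCF factor and 2 feedback targets.

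Markers of other neural regions moved in the same libraries. In the H1 average 4.93% of all tested genes were called lower and 2.23% higher. Of 10 markers of roof plate and neural crest, cell types known to produce and answer to Wnt signals, 7 fell in the H1 average and none rose. Their summed level was 241 to 297 CPM with SCR and 174 to 201 CPM with the hairpins. LMX1A, a defining gene of the roof plate, fell by 1.39 on the log2 scale (adjusted p = 0.00734). Of 9 forebrain and eye field markers 6 rose and none fell, and the sum went from 478 to 599 CPM with SCR to 692 to 932 CPM with the hairpins. Of the 8 tested midbrain and hindbrain markers 4 fell, EN1 and EN2 among them, and 1 rose, FGF8. EN1 and EN2 were low, with 1.41 and 0.773 CPM and 1.02 and 0.943 CPM with SCR. EN1 was at 1.64 and 0.984 CPM with KD1. The more abundant FGF8 was at 13.6 and 12.4 CPM with SCR and 15.4 and 14.3 with KD1. It reached 45.5 and 40.4 CPM with KD2 and 43.2 and 35.2 with KD3. GBX2, of the same list, was at 41.4 and 36.3 CPM with SCR and 17.9 and 16.9 with KD1. With KD2 it was at 12.3 and 11.2 CPM, and with KD3 at 37.5 and 29.2 CPM. Of 8 pluripotency markers 3 fell, POU5F1 (log2 -1.13, adjusted p = 0.0191), NANOG (-0.96, adjusted p = 0.0325) and ZFP42 (-0.57, adjusted p = 0.0163), and SOX2, which neural progenitors also express, rose (0.46, adjusted p = 0.0313). The pluripotency sum was 1570 to 1710 CPM with SCR and 1680 to 2000 CPM with the hairpins. Its largest parts in H1 were LIN28A (827 to 1130 CPM) and SOX2 (417 to 749 CPM). The sum thus says little about POU5F1, which was at 62.2 and 58.6 CPM with SCR and 21.3 to 36.7 CPM with the hairpins. No pluripotency, roof plate, neural crest or forebrain marker was at 0 in either group. The part of these cell types in the Wnt gene changes was not tested.

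Each hairpin was also set against H1 SCR by itself. The 3 contrasts share the H1 SCR libraries, and their counts of calls were not tested against each other. KD1 called 4 members (10%), 2 in each direction, where 11.1% of all genes were called, 4.25% higher and 6.83% lower. The share for KD1 is near that of all genes. KD2 called 4 as well, 2 in each direction, where 1.54% of all genes were called, 0.691% higher and 0.851% lower. KD3 called 9 (22.5%), 2 higher and 7 lower, where 2.98% of all genes were called, 1.19% higher and 1.79% lower. FZD5 and FZD10 were called with every hairpin, at log2 0.91 and -1.41 with KD1, 1.06 and -2.11 with KD2, and 1.04 and -2.0 with KD3. The remaining calls were LEF1 (-0.57) and TCF7L1 (0.51) with KD1, and WNT8B (-1.15) and FZD8 (0.68) with KD2. With KD3 they were WNT3A (-1.56), WNT8A (-1.64), WNT8B (-1.72), FZD8 (0.81), AXIN2 (-0.72), SP5 (-2.52) and RNF43 (-1.10). WNT8A, a canonical ligand of the early embryo, was at 0.591 and 0.644 CPM with KD3 against 2.02 and 1.84 with SCR. Reads of RNF43 may be shared with SUPT4H1, which overlaps it on the same strand. Leaving out single libraries gave 1 to 4 calls for KD1, 2 to 5 for KD2 and 4 to 12 for KD3. The lowest counts came without the first KD1 library, without the first SCR or second KD2 library, and without the second KD3 library; KD1 also dropped to 2 without the second SCR or second KD1 library, and KD3 to 5 without either SCR library. Of the calls by single hairpin, RNF43 held in 9 of 19 alternatives, FZD8 with KD2 in 11, and WNT8A, AXIN2 and LEF1 in 13. TCF7L1 held in 15, WNT3A in 16, WNT8B with KD2 and FZD8 with KD3 in 17, and FZD10 with KD1 in 18, without the first KD1 library as the exception (adjusted p = 0.0783).

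A test between the hairpins, which uses no SCR library, called WNT8B (adjusted p = 0.0242) and SP5 (adjusted p = 0.0253), 2 of 40 members where 3.54% of all genes were called, a share near that of all genes. Both were highest with KD1 and lowest with KD3. Without either KD1 library neither was called, and without the first KD2 or the second KD3 library 1 was. The METTL14 levels of KD1 (11.1 and 11 CPM) and KD3 (8.89 and 13.5 CPM) overlapped. Both KD2 libraries, at 17.7 and 14.8 CPM, lay above them. The promoters of the 2 members called here are shown so that their letters can be set beside the values. They are the 250 bases before the gene start in RefSeq on GRCh38.p14, chr2:170715087-170715336 for SP5 and chr10:100462759-100463008 for WNT8B, both on the plus strand. Capitals mark matches to the TCF/LEF core, searched on both strands. The letters searched were CTTTGAT as the first form, CTTTGAA as the second, CTTTGTT as the third and CTTTGTA as the fourth.
SP5: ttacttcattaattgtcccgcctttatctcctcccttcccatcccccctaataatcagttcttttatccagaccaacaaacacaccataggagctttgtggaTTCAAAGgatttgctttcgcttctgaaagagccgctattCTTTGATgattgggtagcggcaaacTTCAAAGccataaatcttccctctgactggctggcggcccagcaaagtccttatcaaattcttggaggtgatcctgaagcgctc
WNT8B: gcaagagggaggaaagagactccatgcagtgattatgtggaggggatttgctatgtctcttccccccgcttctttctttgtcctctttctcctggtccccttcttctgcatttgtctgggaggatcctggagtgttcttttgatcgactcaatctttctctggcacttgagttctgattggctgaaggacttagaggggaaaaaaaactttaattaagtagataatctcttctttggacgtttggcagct

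The SP5 promoter held 3 matches, TTCAAAG starting at -148, CTTTGAT at -109 and TTCAAAG at -84 from the gene start, and the WNT8B promoter held none. Among 35116 promoters of the same length 12% held at least 1 match. A promoter was given for 27 members, and 3 of them (SP5, TCF7 and TCF7L2; 11.1%) held a match, a share near that of all promoters. A match describes letters in this window, not a binding site.

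The second comparison set MEL1 against H1 at matched hairpins (SCR, KD1 and KD2). It called 28 of the 40 tested members (70.0%), 14 higher and 14 lower in MEL1, where 49.1% of all tested genes were called, 23% higher and 26.2% lower. Ligands split evenly, receptors were mostly lower in MEL1, and feedback targets were mostly higher. The counts were 5 higher and 5 lower of 17 ligands, 2 higher and 7 lower of 12 receptors, 2 higher and 1 lower of 4 TCF factors, and 5 higher and 1 lower of 7 feedback targets. The median log2 difference of the feedback targets was 1.26, beside -0.09 over all genes. Without the MEL1 KD2 library 25 members were called, 11 higher and 14 lower, where 45.4% of all genes were called, and the median of the feedback targets was 0.74, beside -0.10 over all genes. Ranges of the lines lay apart for 15 members, 5 above in MEL1 (12.3% of all genes) and 10 below (13% of all genes). The MEL1 SCR group is 1 library, assumed to vary like the other groups.

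Among the ligands the abundant H1 genes were much lower in MEL1. WNT7B had 51.8 to 91.1 CPM in H1 and 1.98 to 8.70 CPM in MEL1 (log2 -4.27, SE 0.18, adjusted p = 2.67e-08). WNT5B had 45.9 to 78.8 CPM in H1 and 2.25 to 7.31 CPM in MEL1 (log2 -3.71, SE 0.13, adjusted p = 3.89e-09). WNT8B and WNT2B were also lower, by log2 -2.30 and -2.62. None of these 4 genes overlapped between the lines. Ligands higher in MEL1 were low to begin with: WNT6 had 1.33 to 6.19 CPM in MEL1 and 0.0496 to 0.461 CPM in H1 (log2 4.54), and WNT16 had 0.157 to 0.793 against 0 to 0.188 CPM (log2 4.17). WNT4 (log2 1.76, or 1.18 without the MEL1 KD2 library), WNT10B (1.42) and WNT9B (1.22) made up the rest, and WNT10B missed the threshold without the MEL1 KD2 library (log2 0.65, adjusted p = 0.0612), as did WNT9B (log2 0.53, adjusted p = 0.413). WNT9B also missed it without the first library of MEL1 KD1, H1 KD1 or H1 KD2, with adjusted p-values of 0.0535 to 0.0573. WNT3A was called lower in MEL1 (log2 -0.94, adjusted p = 0.00223), but without the MEL1 SCR library the value was 0.26 (adjusted p = 0.318). It was -0.44 with the GC and length trend removed (adjusted p = 0.0532), -0.42 in an additive model of line and treatment (adjusted p = 0.519) and -1.78 without the MEL1 KD2 library (adjusted p = 0.000163). WNT3, WNT5A, WNT8A and WNT9A were not called. WNT3 ranged from 0.0574 to 1.66 CPM within MEL1 and from 0.208 to 2.43 CPM within H1.

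Most Frizzled genes were lower in MEL1. FZD1, an activator of the canonical pathway, had 62.1 to 104 CPM in H1 and 8.31, 8.70, 9.18 and 19.7 CPM in the 4 MEL1 libraries (log2 -2.73, SE 0.11, adjusted p = 9.65e-09). FZD2 was lower by log2 -1.51, FZD5 by -1.48, FZD8 by -1.39 and FZD3 by -1.19; the ranges of all 4 lay apart in the 2 lines. FZD9 (-0.70) and FZD10 (-0.60) were also called lower. The value for FZD10 was 0.43 without the MEL1 SCR library (adjusted p = 0.078), -0.34 in the additive model (adjusted p = 0.686) and -1.75 without the MEL1 KD2 library (adjusted p = 4.83e-05). FZD9 was at -0.46 without the MEL1 SCR library (adjusted p = 0.0742) and at -0.13 with the GC and length trend removed (adjusted p = 0.522). FZD7 had 276 to 565 CPM in MEL1 and 203 to 279 CPM in H1 (log2 0.84), and LRP6 had 44.7 to 86.8 against 32.8 to 56.6 CPM (log2 0.66; adjusted p = 0.0712 without the MEL1 SCR library). FZD4, FZD6 and LRP5 were not called. FZD4 had 21 to 24.3 CPM in MEL1 and 20.1 to 24.4 CPM in H1.

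TCF7 was the TCF factor that separated the lines, with 11.5 to 15.5 CPM in MEL1 and 3.25 to 5.88 CPM in H1 (log2 1.44, SE 0.12, adjusted p = 2.49e-06). TCF7L2 (log2 0.34) and LEF1 (log2 -0.41) were called with overlapping ranges, and both missed the threshold without the MEL1 SCR library. Without the MEL1 KD2 library LEF1 was at -0.84 (adjusted p = 0.000332). TCF7L1 was not called (log2 -0.14, adjusted p = 0.189).

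Feedback targets were higher in MEL1, except for LGR5 and NKD1. RNF43 had 21 to 63.4 CPM in MEL1 and 2.95 to 9.97 CPM in H1 (log2 2.13, SE 0.16, adjusted p = 9.91e-07). AXIN2 had 62.2 to 189 CPM in MEL1 and 32.3 to 57.5 CPM in H1 (log2 1.26, SE 0.10, adjusted p = 1.52e-06). Neither gene overlapped between the lines. SP5 had 10.9 to 64.6 CPM in MEL1 and 0.991 to 12.5 CPM in H1 (log2 1.80), an overlap through the first H1 SCR library. The MEL1 KD2 library bears on the size of these values: without it AXIN2 was at log2 0.78 (adjusted p = 0.000345), SP5 at 0.74 (adjusted p = 0.0432) and RNF43 at 1.59 (adjusted p = 6.11e-05). NOTUM was higher by log2 1.59 (1.09 without the MEL1 KD2 library), and ZNRF3 by 0.30, a value that was 0.01 without the MEL1 KD2 library (adjusted p = 0.948) and missed the threshold without the second H1 KD1 or first H1 KD2 library. LGR5 went the other way, with 0.287 to 1.37 CPM in MEL1 and 10 to 24.4 CPM in H1 (log2 -4.36, SE 0.21, adjusted p = 3.38e-08). NKD1 was not called (log2 0.27, adjusted p = 0.107).

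**Figure D3:**
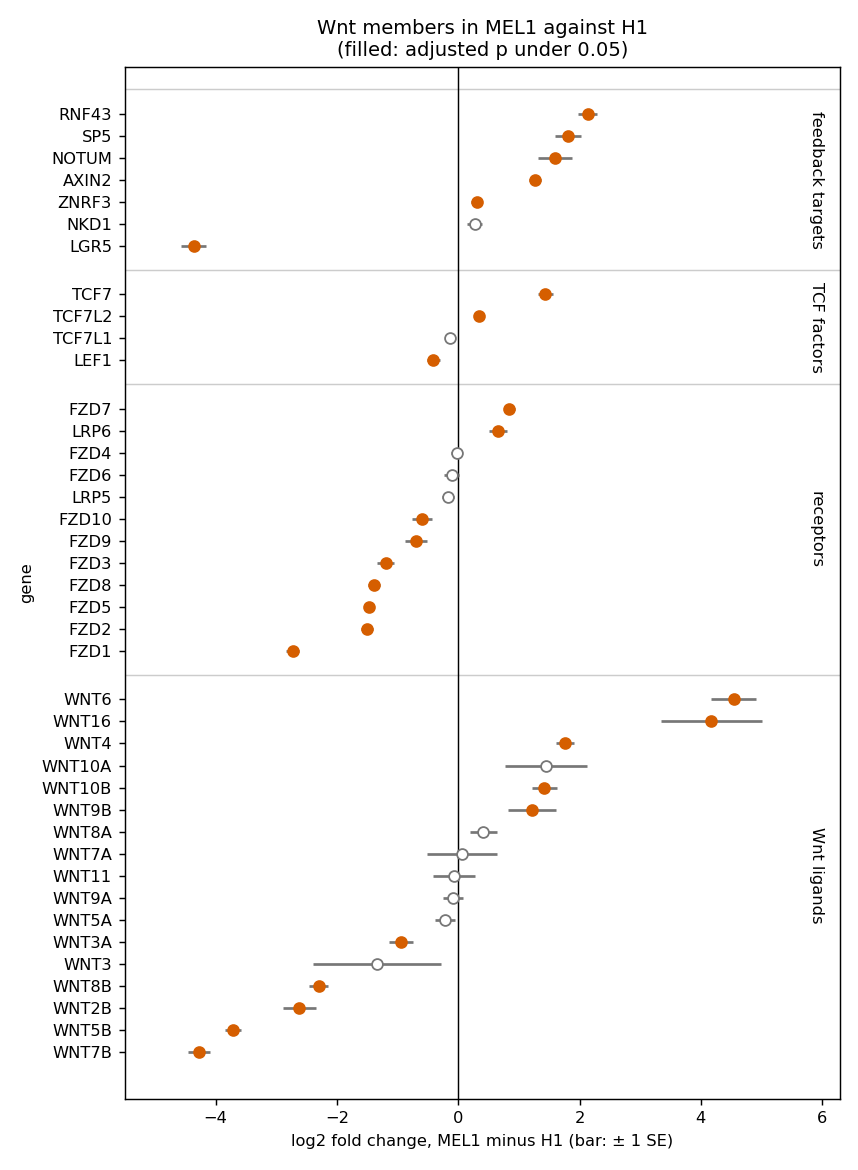
Log2 fold change of MEL1 minus H1 for the tested members by role (bars: 1 SE; filled: adjusted p under 0.05, edgeR). LGR5, WNT7B and WNT5B lie at -4.36, -4.27 and -3.71, RNF43 at 2.13.

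The lines also differed in their cell type markers. All 8 neuronal markers and 8 of 9 forebrain and eye field markers were lower in MEL1, and 7 of 8 pluripotency markers were higher. Over all tested genes 23% were called higher and 26.2% lower. Surface ectoderm and extraembryonic markers were higher too, all 6 tested, with a median log2 of 3.65. That median leans on genes near 0 in H1. TP63 and CGA were at 0 to 1.29 CPM in MEL1, and ISL1 at 1.28 to 3.48 CPM. In H1 these genes stayed at or below 0.161 CPM. GATA3 had 7.72 to 22.1 CPM in MEL1 and 0.744 to 2.47 CPM in H1. TFAP2C had 46.2 to 120 against 11.3 to 17.4 CPM, and KRT18 324 to 480 against 167 to 311 CPM. The median log2 for pluripotency was 2.5. Of 8 tested midbrain and hindbrain markers 6 were lower. Roof plate and neural crest markers split, with 5 higher and 4 lower of 10. For mesoderm and endothelium the split was 6 and 4 of 14, and for endoderm 3 and 1 of 7 tested. Pluripotency markers summed to 2470 to 4230 CPM in MEL1 and 1570 to 2000 CPM in H1. The part of these differences in the Wnt gene levels was not tested, and line and cell makeup cannot be told apart here.

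The third comparison covered knockdown in both lines, first as an effect shared by the 2 lines and later as a difference between them. In the test of a shared effect, differences between lines and hairpins in the knockdown effect enter the spread. Over all 12 libraries with line as a covariate, none of the 40 members was called, where 0.213% of all tested genes were, 0.0562% higher and 0.157% lower. The smallest adjusted p was 0.118, for TCF7L1. At an unadjusted p under 0.05 there were 6 members (WNT5B, WNT7A, FZD5, FZD10, LRP5 and TCF7L1) of 40, beside 15.7% of all genes. DESeq2 called 2 members, WNT5B and TCF7L1, both higher. Averaging group means called 6, and H1 by itself 2, FZD5 (log2 1.01) and FZD10 (-1.79). Calls over all genes are not given for these alternatives, so the counts are not read as changes in the members. Without the MEL1 KD2 library LEF1 was called lower (log2 -0.64, adjusted p = 0.037).

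The MEL1 knockdown libraries were described without a test, since SCR was 1 library. The mean of the KD1 libraries was over 2-fold above SCR, on the log2(CPM + 0.5) scale, for WNT3A, WNT5B and NOTUM, 3 of 40 members where 4.57% of all genes were; none was below by as much, where 3.06% of all genes were. The KD2 library was over 2-fold above SCR for 16 of 40, where 4.71% of all genes were, and below for none, where 3.16% were. Against the KD1 mean it was over 2-fold above for 14 members, where 3.91% of all genes were, and below for none, where 2.81% were. It was over 2-fold above every other MEL1 library for 10 members, where 1.06% of all genes were, and below every one for none, where 0.514% were. These were the ligands WNT4, WNT7B, WNT8A and WNT10B, the receptors FZD1 and FZD10, and the feedback targets AXIN2, NKD1, SP5 and RNF43. In the order SCR, KD1, KD1 and KD2, SP5 was at 20.6, 10.9, 12 and 64.6 CPM, and NKD1 at 18.4, 20.6, 13.6 and 59.4 CPM. AXIN2 was at 91.5, 77.4, 62.2 and 189 CPM and WNT4 at 7.29, 6.47, 6.40 and 24.4 CPM. In each of these the KD2 library was the high one and the KD1 libraries lay near or below SCR. The same library held 587 CPM summed over the 10 roof plate and neural crest markers, against 151 to 247 CPM in the other MEL1 libraries, and the lowest pluripotency sum, 2470 against 3760 to 4230 CPM. Their part in the KD2 values was not tested, and with 1 library the hairpin and the library cannot be told apart.

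**Figure D4:**
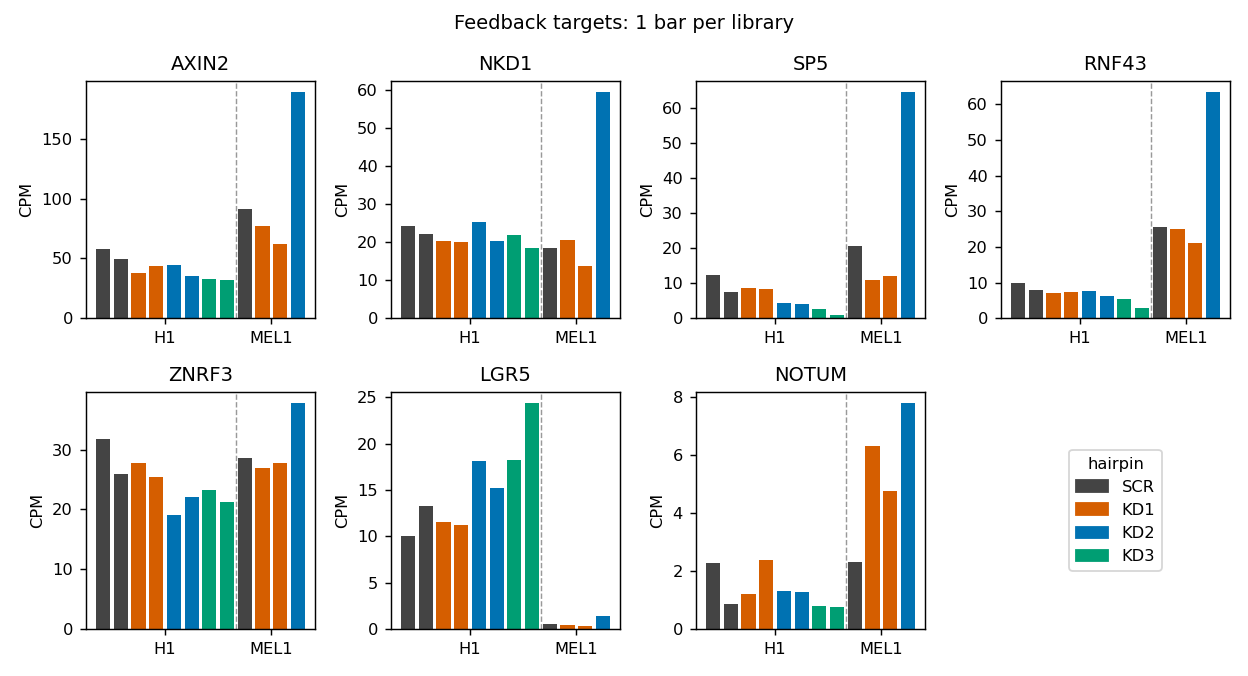
CPM of the 7 feedback targets (panels), 1 bar per library, H1 left and MEL1 right of the dashed line, coloured by hairpin. The MEL1 KD2 bar is the tallest for AXIN2, NKD1, SP5 and RNF43, while LGR5 is at or below 1.37 CPM throughout MEL1.

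A test of whether KD1 and KD2 acted differently in MEL1 than in H1 was positive for 4 of 40 members (10%), where 0.598% of all genes were called. The median difference over all genes was 0.11 under this scaling and 0.01 under upper-quartile scaling. WNT3A had the largest difference of the 4, with a log2 effect of -0.81 in H1 and 2.79 in MEL1 (difference 3.60, SE 0.47, adjusted p = 0.0133). In MEL1 it was at 0.954 CPM in the SCR library and at 6.06, 6.05 and 7.27 CPM with KD1, KD1 and KD2. FZD10 had effects of -1.76 and 1.34 (difference 3.10, SE 0.39, adjusted p = 0.0117), with 3.54 CPM in MEL1 SCR and 4.58, 4.99 and 16.9 CPM with the hairpins. Without the MEL1 KD2 library the FZD10 difference was 1.84 (adjusted p = 0.0476). FZD5 had effects of 0.98 and -0.35 (difference -1.34, SE 0.16, adjusted p = 0.0117), with 67.8 CPM in MEL1 SCR and 68.2, 71.4 and 40.3 CPM with KD1, KD1 and KD2; without the KD2 library it was -0.86 (adjusted p = 0.0405). The KD1 libraries of MEL1 thus matched SCR for FZD5, where those of H1 held close to the level of the other H1 hairpins. WNT8B had effects of -0.87 and 1.01 (difference 1.88, SE 0.33, adjusted p = 0.0425).

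WNT3A, FZD5 and FZD10 were called in all 18 alternatives and WNT8B in 8 of them; without the MEL1 KD2 library the WNT8B difference was 1.21 (adjusted p = 0.0927). It also missed the threshold without the second MEL1 KD1, the first H1 SCR, either H1 KD1 or the second H1 KD2 library, with adjusted p-values of 0.0628 to 0.1. All 4 differences rest on the single MEL1 SCR library, the least deeply sequenced, in which WNT3A had 14 estimated counts, WNT8B 44, FZD10 52 and FZD5 995. The trend on GC content also moved with this comparison. In MEL1 its correlation was -0.639 in the SCR library, 0.415 and 0.444 in the KD1 libraries and -0.0166 in the KD2 library. Removing the trend raised the calls over all genes for this comparison from 113 higher and 36 lower to 248 and 209. With the trend removed 6 members were called, and the differences were 3.12 for WNT3A (adjusted p = 0.00831), 2.81 for FZD10 (adjusted p = 0.00436), 1.58 for WNT8B (adjusted p = 0.0324) and -1.30 for FZD5 (adjusted p = 0.00638). The effect on the feedback targets was not called different between the lines for any of them, with the smallest adjusted p at 0.144, for AXIN2.

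**Figure D5:**
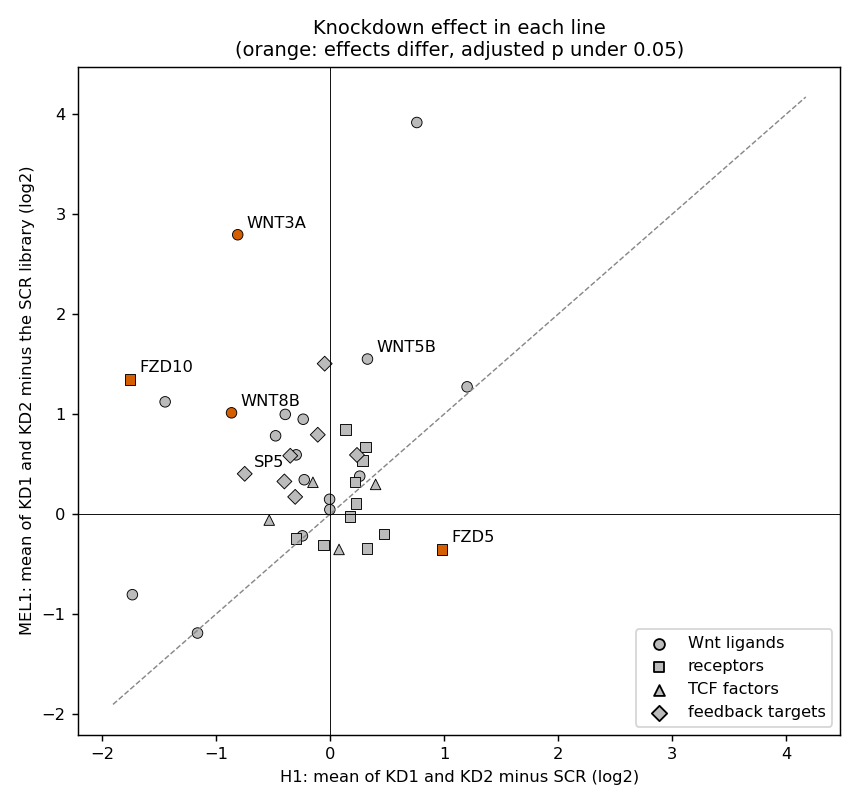
Log2 effect of KD1 and KD2 against SCR in MEL1 (vertical) and H1 (horizontal), 1 point per tested member, shaped by role; the dashed line marks equal effects. WNT3A, FZD10 and WNT8B, in orange, lie above the line and FZD5 below it.

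The other genes of the pathway were read from 5 lists with 50 genes in all, every one of them tested. The H1 hairpin average called 6 (12%, beside 7.16% of all genes). LGR4, an R-spondin receptor, rose (log2 0.40, adjusted p = 0.0455), and this was the only call among 8 genes of Wnt secretion and R-spondin signalling. CTNNB1, which encodes beta-catenin, was at 692 and 698 CPM with SCR and 447 to 603 CPM with the hairpins (log2 -0.40, adjusted p = 0.0196), the only call among 13 genes of the destruction complex and its partners. PRICKLE1, of the planar polarity branch, fell by 0.98 (adjusted p = 0.000829), the only call among 11 further receptors and polarity genes. None of 8 nuclear cofactors was called.

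Of 10 further Wnt targets, APCDD1, DKK1 and BAMBI fell in the H1 average and none rose. APCDD1, a membrane inhibitor of Wnt signalling, was at 22.1 and 21.5 CPM with SCR and 6.82 to 12 CPM with the hairpins (log2 -1.38, adjusted p = 0.000778). DKK1, a secreted inhibitor that binds LRP6, was at 1.38 and 1.81 CPM with SCR, 1.59 and 2.30 with KD1, 0.920 and 0.715 with KD2, and 0.0537 and 0.0248 with KD3. Its fall in the average (log2 -1.98, adjusted p = 0.0052) thus came from KD2 and KD3, and mostly from KD3. The 2 KD3 libraries held 3 counts of DKK1 in sum, so the size of the fall is uncertain. BAMBI, a pseudoreceptor that modulates BMP and Wnt signals, was at 5.53 and 5.83 CPM with SCR and 1.95 to 4.34 CPM with the hairpins (log2 -0.88, adjusted p = 0.0188). APCDD1 and PRICKLE1 were called in all 20 alternatives, DKK1 in 19, CTNNB1 and BAMBI in 17 and LGR4 in 12. DKK1 missed the threshold without the second SCR library (adjusted p = 0.076), and CTNNB1 and BAMBI without either SCR library or the first KD1 library, with adjusted p-values up to 0.162 and 0.138.

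Over both lines no pathway gene was called. Between MEL1 and H1, 34 of 50 were called (68.0%), 10 higher and 24 lower in MEL1, where 49.1% of all tested genes were called, 23% higher and 26.2% lower. The 6 largest differences were all lower in MEL1 and included the R-spondins RSPO2 (log2 -3.0), RSPO3 (-2.05) and RSPO1 (-2.0), secreted proteins that raise Frizzled levels through LGR receptors. APC2 (-2.44), CTNNBIP1 (-2.09), an inhibitor of the beta-catenin and TCF complex, and PYGO1 (-2.04), a cofactor of beta-catenin, were the other ones. RSPO2 was low in both lines, with 0.392 to 1.78 CPM in H1 and 0.0225 to 0.66 CPM in MEL1, an overlap. PRICKLE1 was the pathway gene whose knockdown effect differed between the lines (difference 1.24, adjusted p = 0.0304), with 26.9 CPM in MEL1 SCR and 28.2 to 31.8 CPM with the MEL1 hairpins.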

How the data were processed

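Total RNA of 12 libraries was sequenced after stranded library preparation, per the labels' protocols. The authors deposited estimated counts per Ensembl identifier; between 14.8% and 20.8% of a library's values were not whole. The submitters' processing notes name fastp and kallisto, without versions. The annotation, the filters and whether counting used strand are not given in the sources used here, so overlapping and antisense genes are uncertain: 9 members overlap another gene on the same strand and 18 on the opposite strand. Symbols came from a name table holding 59243 of 65969 identifiers, and positions from GENCODE 29 on GRCh38, matched by identifier. Promoters came from RefSeq on GRCh38.p14.

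Estimated counts were rounded. The edgeR package (4.0.16, with limma 3.58.1 and R 4.3.3) served to filter genes (filterByExpr over the 7 groups), to scale libraries (TMM, a trimmed mean of log ratios) and to run quasi-likelihood F-tests in robust mode. P-values were adjusted by the Benjamini-Hochberg method over all 24898 tested genes, with a call at an adjusted p under 0.05. To get a standard error, the size of the log2 difference was divided by the root of F. A model of 7 group means gave every contrast except the one over both lines, which had line as a covariate. MEL1 against its 1 SCR library was described on log2(CPM + 0.5) with no test. CPM are on TMM-scaled library sizes. On simulated data with 200 genes changed by a log2 of 2, the H1 average recovered 95.0% with 5.0% false calls among 23696 genes, and the difference between lines recovered 77.5% with 7.74% false calls among 23707 genes. The changed genes had a mean of at least 1 CPM, and no GC trend was simulated. Every member called in the H1 average changed by less than a log2 of 2, so these rates do not cover such changes. Alternatives were other scalings, filters and models, DESeq2 1.42.0, removal of a GC and length trend (splines with 5 and 4 degrees of freedom, values for 90.6% of tested genes and all 41 members) and leaving out each library.

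Members were named if their mean reached 1 CPM or if they were called anywhere, with pathway genes called in the H1 average or over both lines and the 6 largest differences between lines. The members and lists were chosen with earlier results of these data known.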

Additional observations from a re-analysis of the deposited data

Results flagged for a closer look

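Among 35 results tested for a library standing apart within the 6 H1 knockdown libraries, 2 stood apart, and chance gives about 1 in 20. WNT6 was at 0.461 CPM in the second H1 KD2 library and 0.0496 to 0.15 CPM in the other ones, a gap of 0.757 of the range. NOTUM was at 2.37 CPM in the second H1 KD1 library and 0.768 to 1.31 CPM in the other ones, a gap of 0.664.

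The KD1 and KD2 effect differed between MEL1 and H1, by edgeR's test of the difference, for WNT3A (log2 difference 3.60), FZD10 (3.10), WNT8B (1.88) and FZD5 (-1.34); all 4 rest on 1 MEL1 SCR library. The effects of the 3 H1 hairpins differed for WNT8B (adjusted p = 0.0242) and SP5 (adjusted p = 0.0253), by edgeR's test of the difference, which called 3.54% of all genes.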

How the results depend on the processing

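Of 1390 recomputed values of single genes, 1257 kept their direction and their side of the threshold, 124 lost the call, 7 gained it and 2 changed sign. The 2 were WNT3A and FZD10 between MEL1 and H1, with 0.26 and 0.43 without the MEL1 SCR library and -1.78 and -1.75 without the MEL1 KD2 library. The members called over both lines, 0 as reported, numbered 6 with group means, 2 with H1 by itself, 2 with DESeq2 and 0 to 1 when a library was left out. With no filter on low counts the calls were 14 for the H1 average, 7 for KD1, 9 for KD2, 15 for KD3, 14 between hairpins and 11 for the difference between lines, and with the GC and length trend removed they were 15, 9, 8, 15 and 7 for the first 5 of these. DESeq2 called 8 members for KD2, 14 for KD3 and 8 between hairpins. Leaving out 1 library gave 5 to 10 calls for the H1 average, 1 to 4 for KD1, 2 to 5 for KD2, 4 to 12 for KD3, 0 to 2 between hairpins, 3 to 4 for the difference between lines and 24 to 29 between the lines. For these counts, the cause was not tested. With the trend removed, calls over all genes rose too, from 555 higher and 1228 lower to 1061 and 1832 for the H1 average. For KD1 they went from 1057 and 1701 to 1487 and 2110. For KD2 the change was from 172 and 212 to 456 and 582, and for KD3 from 296 and 445 to 775 and 1085. The other counts are given here without calls over all genes, so they are not read as changes in the members. The difference between lines could not be fitted without the MEL1 SCR library. Upper-quartile scaling changed the split of calls over all genes from 1057 higher and 1701 lower to 1255 and 1278 for KD1, and from 113 and 36 to 56 and 41 for the difference between lines. No paired analysis was possible because the labels carry no replicate numbers. Ligands under 1 CPM rest on few counts, and MEL1 SCR has the fewest.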
